A study of Mus musculus with 66 samples.

Results

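The mature miRNAs mmu-miR-483-5p, mmu-miR-483-3p, mmu-miR-675-5p and mmu-miR-675-3p are the arms of the hairpins encoded in the imprinted genes Igf2 and H19, and all 4 were present among the 1826 miRNAs counted in plasma of C3H mice. They were picked by name, with earlier results of these data known. Small RNA of plasma was sequenced from 13 male mice of the inbred strain C3H, which is prone to liver tumors with or without irradiation. Blood came from the heart at necropsy, more than 12 months after irradiation by the labels, and 8 of the mice had hepatocellular carcinoma (HCC) while 5 had none (non-HCC). By the study's methods the HCC mice comprised spontaneous and radiation-induced tumors, and the labels do not say which mouse had which, so they form 1 group here. Since the labels give a time after irradiation for all 13 mice, they do not settle which mice, with or without HCC, were irradiated. Counts are of UMIs (unique molecular indices), barcodes that count an RNA molecule once however often it is amplified. The labels also cover plasma of F2 mice from BALB/c females and C3H males, which was not analysed here.

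H19 and Igf2 lie next to each other in an imprinted domain. H19, a long noncoding RNA, is expressed from the maternal chromosome and Igf2, a fetal growth factor, from the paternal one. Both are abundant in fetal liver, are turned down after birth and are known to be expressed again in some liver tumors, hence the term oncofetal. The miRNA miR-675 is cut from the H19 transcript itself and is known to lower Igf1r, the receptor of insulin-like growth factors. The miRNA miR-483 is cut from an intron of Igf2, and its 3p arm is known to lower Bbc3 (Puma), a promoter of apoptosis.

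The 4 mature sequences are shown since the UMIs of each arm are what the results count. They are given 5′ to 3′ from RefSeq (GRCm38.p6), with the seed, bases 2 to 8, in capitals.
mmu-miR-483-5p: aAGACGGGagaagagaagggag
mmu-miR-483-3p: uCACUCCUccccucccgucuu
mmu-miR-675-5p: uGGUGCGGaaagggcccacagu
mmu-miR-675-3p: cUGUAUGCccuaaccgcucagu
The 4 seeds differ from each other, and 0 of the other mouse miRNAs among the 1679 mature sequences held by RefSeq share any of them. A shared seed therefore groups none of the 4 with another miRNA. The 5p arm of miR-483 has purines at 21 of its 22 bases and the 3p arm pyrimidines at 19 of its 21, whereas the arms of miR-675 are mixed, with 14 and 8 purines in 22 bases each.

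The hairpins are shown with both mature arms in capitals, since the balance between the arms is compared later.
Mir483: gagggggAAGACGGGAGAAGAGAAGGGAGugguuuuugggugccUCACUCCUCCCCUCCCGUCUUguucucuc
Mir675: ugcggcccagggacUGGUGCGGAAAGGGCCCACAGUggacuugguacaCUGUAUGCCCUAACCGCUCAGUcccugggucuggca
Mir483 lies at chr7:142654924-142654996 and Mir675 at chr7:142577064-142577147 of GRCm38, both on the minus strand and 77776 bases apart. By the GENCODE M21 annotation, Mir483 is in an intron of all 7 annotated Igf2 transcripts that span it, and in an intron of Gm49394, a protein-coding gene annotated over Igf2 on the same strand. Mir675 is in an exon of 3 of the 4 H19 transcripts that span it and in an intron of the other.

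The HCC libraries held 9513136 to 14247488 miRNA UMIs, and the non-HCC libraries held 10467560 to 13962539. The lowest value above 0 in the table is 10, so an entry of 0 is read as fewer than 10 UMIs. Levels are log2 of the count plus 1 UMI, divided by a scale factor, the mean UMI count of the synthetic spike-ins UniSP2 and UniSP4 in a mouse over the geometric mean of that value across mice. In 3 pairs of HCC mice the whole miRNA profiles were much alike. Across 318 miRNAs with at least 50 UMIs in every mouse, the deviations from the mean profile correlated with r = 0.98 between HCC mice 1 and 6, 0.95 between 2 and 5, and 0.92 between 3 and 7, against at most 0.53 for any other HCC pair and 0.81 for any non-HCC pair. These correlations are across miRNAs, which are not independent. The libraries of each pair differed by more than counting noise (chi-square per degree of freedom of 81.0, 158 and 211), which repeat libraries of 1 plasma could also do. They were counted as separate mice as labelled, and the log2 fold changes of the 4 miRNAs are also given with the pairs summed.

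All 4 miRNAs were scarce in non-HCC mice, with 0 to 60 UMIs, and 3 of the 8 HCC mice, 1, 6 and 8, had the most UMIs of each. On the spike-in scale these mice were also the highest in all but miR-675-5p. The miRNAs miR-483-5p, miR-483-3p and miR-675-3p were higher in HCC mice past the threshold, and miR-675-5p was not.

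The most abundant of the 4, miR-483-5p, had 5750, 25, 173, 107, 11, 5593, 225 and 1348 UMIs in HCC mice 1 to 8. In non-HCC mice 1 to 5 it had 59, 60, 53, 55 and 39. The non-HCC mice were thus nearly equal, while HCC mice 1 and 6 stood about 2 orders of magnitude above them, HCC mouse 8 stood well above, HCC mice 3, 4 and 7 stood moderately above, and HCC mice 2 and 5 had fewer UMIs than any non-HCC mouse. In HCC mouse 6, which was highest after spike-in scaling, the level was 222-fold above the median of the non-HCC mice. Per 1000000 miRNA UMIs of a mouse, miR-483-5p had 563 and 574 in HCC mice 1 and 6, 142 in HCC mouse 8, 0.787 to 19.03 in the other HCC mice, while non-HCC mice had 2.79 to 5.41.

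In non-HCC mice its mean log2 level was 5.45 ± 0.16 (SD, n = 5), and in HCC mice it was 8.39 ± 3.01 (SD, n = 8). In edgeR's quasi-likelihood test the log2 fold change was 5.51 (standard error 1.35, adjusted p = 0.0154 over all 1452 miRNAs tested). A fitted fold change compares means of counts, which mice 1 and 6 dominate, and the difference between the mean log2 levels was 2.94 and that between the medians 1.57. The difference of the mean log2 levels had an exact two-sided permutation p of 0.0412, and 0.342 after adjustment over all miRNAs tested. With the alike pairs summed the log2 fold change was 5.16 (edgeR adjusted p = 0.0111), and without HCC mouse 6 it was 4.40 (edgeR adjusted p = 0.0249). Its call was lost with limma on log2 levels (2.94, adjusted p = 0.230), without non-HCC mouse 1 (5.47, edgeR adjusted p = 0.0516) and with the replicate number as a block (1.56, edgeR adjusted p = 0.165).

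The other arm of the same hairpin, miR-483-3p, had 1103, 15, 36, 44, 23, 1067, 30 and 213 UMIs in HCC mice 1 to 8. Non-HCC mice 1 to 5 had 23, 26, 23, 16 and 19. HCC mice 1, 6 and 8 again lay far above all others, and the remaining 5 HCC mice lay close to the non-HCC mice in UMIs. In non-HCC mice its mean log2 level was 4.17 ± 0.35 (SD, n = 5), and in HCC mice it was 6.70 ± 2.48 (SD, n = 8). The log2 fold change was 4.45 (standard error 1.15, edgeR adjusted p = 0.0200), the difference in mean log2 level was 2.53 (exact permutation p = 0.0396, adjusted 0.336), and with the alike pairs summed the fold change was 4.10 (edgeR adjusted p = 0.0149). Its call was lost without any one of non-HCC mice 1, 2, 3 or 4 (edgeR adjusted p = 0.0567 to 0.0623) and with limma (adjusted p = 0.225).

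The dominant arm of the H19 hairpin, miR-675-3p, had 454, 24, 28, 98, 21, 345, 42 and 450 UMIs in HCC mice 1 to 8. Non-HCC mice 1 to 5 had 20, 19, 11, 0 and 13. In UMIs the lowest HCC mouse exceeded the highest non-HCC mouse, though HCC mice 2, 3 and 5 did so by a few UMIs. The share of all miRNAs separated in UMIs was not computed. On the spike-in scale the groups overlapped, with HCC mouse 3 at 3.99 and non-HCC mouse 5 at 4.20. HCC mice 1, 6 and 8 were again the highest, and HCC mouse 8 had nearly as much miR-675-3p as HCC mouse 1. In non-HCC mice its mean log2 level was 2.92 ± 1.85 (SD, n = 5), and in HCC mice it was 6.70 ± 1.92 (SD, n = 8). Its log2 fold change was 4.25 (standard error 1.01, edgeR adjusted p = 0.0134), and the difference in mean log2 level was 3.77 (exact permutation p = 0.00389, adjusted 0.201). It was past the threshold in each of the 23 alternatives run, with adjusted p from 3.92e-05 to 0.0476, including limma (adjusted p = 0.0476) and the alike pairs summed (log2 fold change 4.24, edgeR adjusted p = 0.0105).

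The minor arm, miR-675-5p, had 55, 24, 0, 25, 19, 62, 14 and 89 UMIs in HCC mice 1 to 8. Non-HCC mice 1 to 5 had 0, 12, 0, 0 and 13. It was listed above 0 in 7 of 8 HCC mice and in 2 of 5 non-HCC mice, and its highest count was 89, where the lowest value that the table lists is 10. On the spike-in scale HCC mice 2 and 5, at 6.09 and 5.85, were above HCC mouse 1, at 5.60. In non-HCC mice its mean log2 level was 1.21 ± 2.29 (SD, n = 5), and in HCC mice it was 4.67 ± 2.51 (SD, n = 8). Its log2 fold change was 3.23 (standard error 1.19) and was not called (edgeR adjusted p = 0.111, and 0.00375 to 0.233 over the alternatives). The difference in mean log2 level was 3.46 (exact permutation p = 0.0326, adjusted 0.315), and it was 1.88 when each 0 was set to 9 UMIs, so that its size depends on what the zeros stand for. It was called in 3 of 23 alternatives, which were DESeq2 with its own size factors (adjusted p = 0.0405), leaving out HCC mouse 3 (edgeR adjusted p = 0.0332) and the replicate number as a block (edgeR adjusted p = 0.00375). With the alike pairs summed its log2 fold change was 3.22 (edgeR adjusted p = 0.0762).

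**Figure D1:**
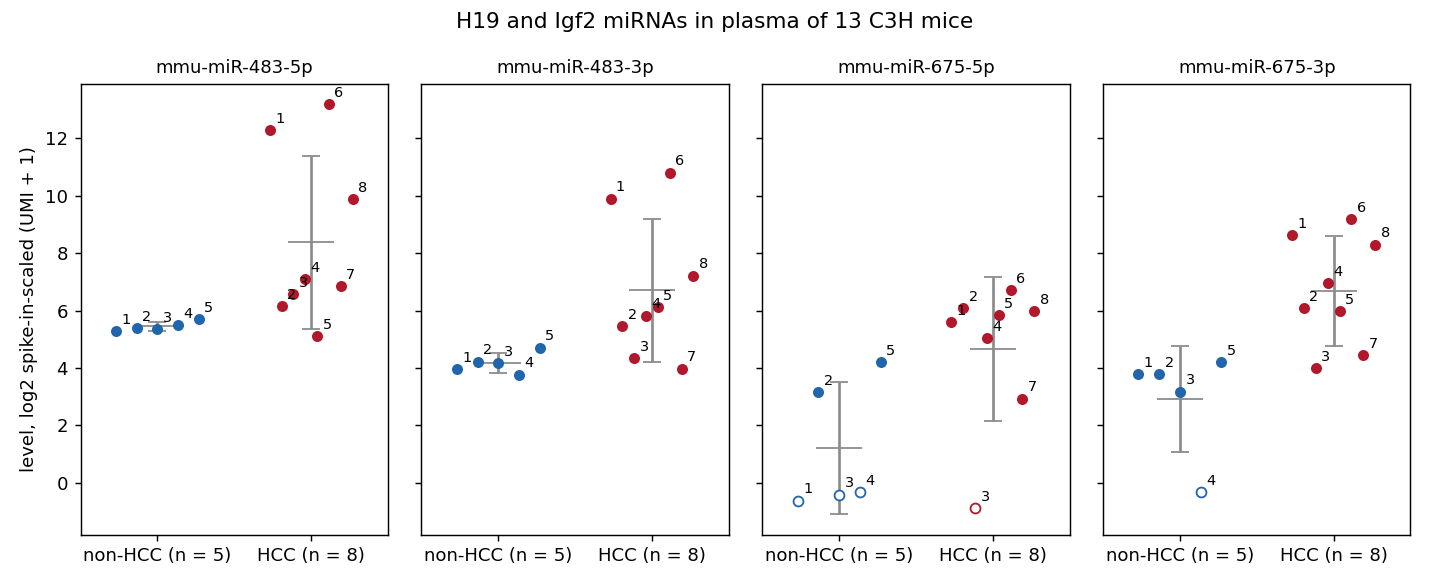
Level of each miRNA (y axis, log2 of spike-in-scaled UMI + 1) in the 5 non-HCC mice (blue) and 8 HCC mice (red), with the mouse number beside each point. Open points are mice listed at 0 UMIs, and grey bars give the mean ± SD. HCC mice 1, 6 and 8 are the 3 highest in miR-483-5p, miR-483-3p and miR-675-3p.

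Of the 4 miRNAs, 3 were thus called higher and 0 lower, where edgeR called 7.51% of the 1452 miRNAs tested higher. With TMM factors, which are computed from the miRNA counts, the same 3 were called, where 7.37% of all miRNAs were called higher. The log2 fold changes were then 5.03, 3.95 and 3.88 for miR-483-5p, miR-483-3p and miR-675-3p, and the median over all miRNAs fell from 0.78 to 0.17. With TMM factors 2.20% of all miRNAs were called lower, and none of the 4 was. The exact permutation test gave all 4 an unadjusted p under 0.05, where it did so with a higher level in HCC mice for 12.8% of all miRNAs. On TMM levels it did so for miR-675-5p (exact permutation p = 0.0194) and miR-675-3p (exact permutation p = 0.00622), but not for miR-483-5p (exact permutation p = 0.137) or miR-483-3p (exact permutation p = 0.0606), where 14.3% of all miRNAs passed. After adjustment none of the 4 was past the threshold, where 0.00% of all miRNAs were. With 13 mice the smallest p that the exact permutation test can give is 0.000777. Adjusted over 1452 miRNAs, that value passes only if many miRNAs come that low, so the adjusted values decide little for the 4. Limma called 1 of the 4, where it called 3.03% of all miRNAs higher. The spread of both miR-483 arms among HCC mice was large even for this table, in which the SD of the log2 level among the 8 HCC mice had a median of 1.59. MiR-483-5p, with an SD of 3.01, ranked 24 of 1452 by this SD, and miR-675-5p, miR-483-3p and miR-675-3p ranked 124, 133 and 500. The rank of miR-675-5p rests in part on HCC mouse 3, listed at 0 UMIs and placed at -0.87.

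After spike-in scaling, miR-483-5p lay above all non-HCC mice in 7 HCC mice, miR-483-3p in 6, miR-675-5p in 6 and miR-675-3p in 7, where 13.0% of all miRNAs did so in at least 6 and 3.99% in at least 7. With TMM scaling these numbers were 6, 6, 7 and 8, where 12.3% of all miRNAs did so in at least 6. The shares with at least 7 or with 8 were not computed on this scale, so the last 2 numbers lack a share of their own. The scale matters most in HCC mice 2 and 5, whose UniSP2 counts of 175009 and 165794 were the lowest of the 13 mice, against up to 938898 in another HCC mouse. In HCC mouse 5, 23 UMIs of miR-483-3p gave a log2 level of 6.11, while 23 UMIs in non-HCC mouse 1 gave 3.97. With TMM factors these levels were 4.72 and 4.56. The position of HCC mice 2 and 5 against non-HCC mice therefore follows the scale in miR-483-3p, as does that of HCC mouse 2 in miR-483-5p. HCC mouse 5 was below all non-HCC mice in miR-483-5p under both scales. In both arms of miR-675, HCC mice 2 and 5 were above all non-HCC mice in UMIs and under both scales, though by few UMIs. HCC mice 3 and 7 had the highest UniSP2 counts. In miR-483-3p they were above all non-HCC mice in UMIs (36 and 30 against at most 26) and with TMM scaling, but not on the spike-in scale. For HCC mice 1, 6 and 8 every one of the 4 levels exceeded the highest non-HCC level under both scales.

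**Figure D2:**
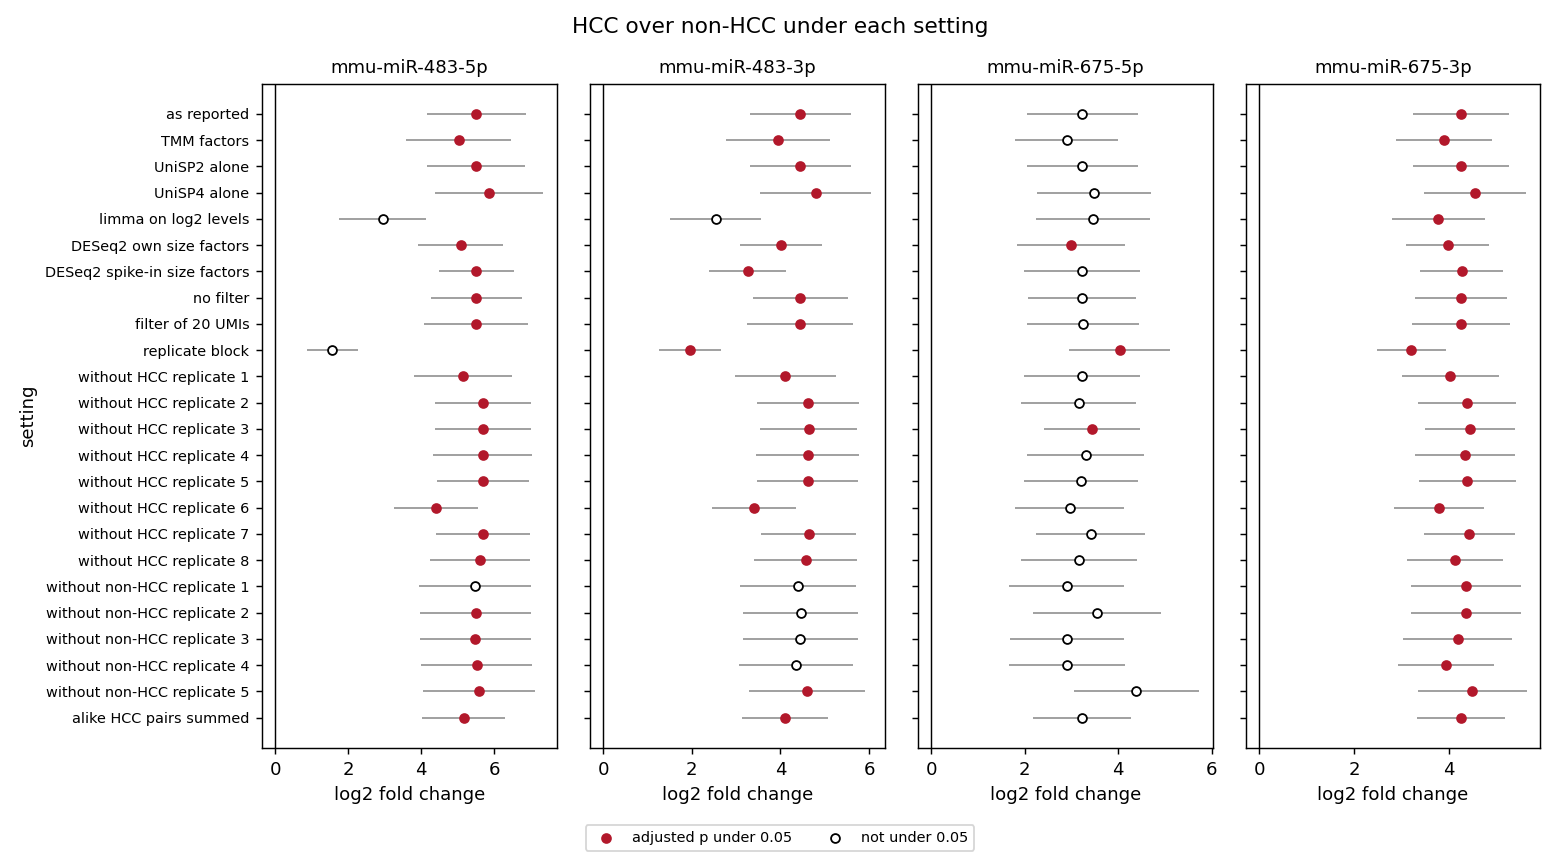
Log2 fold change of HCC over non-HCC mice (x axis) with its standard error for each of the 4 miRNAs under the reported test and each alternative (y axis). Filled points passed an adjusted p of 0.05. All fold changes are above 0, miR-675-3p passed throughout, and miR-483-5p was lowest, at 1.56, with the replicate number as a block.

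Whether the 2 arms of each hairpin changed alike was asked from the ratio of the arms within a mouse, which does not depend on the library scale. The 5p arm was the more abundant arm of miR-483 and the 3p arm that of miR-675. In HCC mice 1, 6 and 8 the ratio of 5p to 3p UMIs of miR-483 was 5.21, 5.24 and 6.33. In non-HCC mice it was 2.05 to 3.44. In HCC mice 3, 4 and 7 it was 4.81, 2.43 and 7.50, and in HCC mice 2 and 5, where both arms had at most 25 UMIs, it was 1.67 and 0.478. The mean log2 ratio was 1.28 ± 0.27 (SD, n = 5) in non-HCC mice against 1.69 ± 1.31 (SD, n = 8) in HCC mice, a difference of 0.41 that did not exceed the spread between mice (two-sided exact permutation p = 0.527, adjusted 0.769 over 441 hairpins with both arms tested). The ratio passed the threshold in 6.80% of these hairpins.

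For miR-675 the ratio of 5p to 3p UMIs was 0.121, 0.180 and 0.198 in HCC mice 1, 6 and 8, so that at the highest counts the 3p arm outnumbered the 5p arm at least 5-fold. The ratio was 0.255 and 0.333 in HCC mice 4 and 7, and 1.00 and 0.905 in HCC mice 2 and 5, where each arm had 19 to 24 UMIs. It could be formed in only 2 non-HCC mice, at 0.632 and 1.00. With 1 UMI added to each arm, the mean log2 ratio was -1.72 ± 2.11 (SD, n = 5) in non-HCC mice against -2.03 ± 1.57 (SD, n = 8) in HCC mice (exact permutation p = 0.757, adjusted 0.908). With each 0 set to 9 UMIs the difference was -1.22 (exact permutation p = 0.0427, adjusted 0.176).

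**Figure D3:**
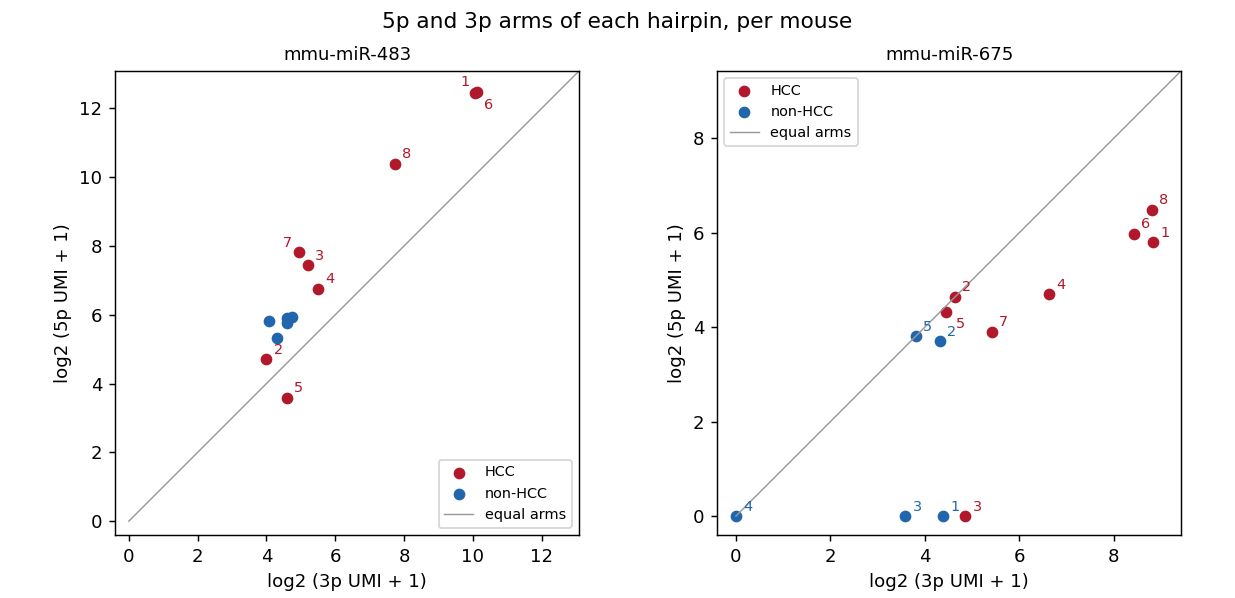
Counts of the 5p arm (y axis) against the 3p arm (x axis), both as log2 (UMI + 1), for miR-483 (left) and miR-675 (right) in HCC mice (red, numbered) and non-HCC mice (blue, numbered on the right only). The line marks equal arms. MiR-483 lies above it in all mice but HCC mouse 5, and miR-675 lies on or below it.

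The proportion of the hairpins to each other varied between mice. Both arms of miR-483 together had 6853, 6660 and 1561 UMIs in HCC mice 1, 6 and 8, and both arms of miR-675 had 509, 407 and 539. The ratio of miR-483 to miR-675 was thus 13.5, 16.4 and 2.90 in these mice. It was 2.23 to 6.91 in the 4 non-HCC mice in which it could be formed. In UMIs HCC mouse 8 therefore had the most miR-675 of all mice and much less miR-483 than mice 1 and 6. On the spike-in scale its log2 level of miR-675-3p was 8.30, below 9.18 in mouse 6 and 8.62 in mouse 1. All 4 miRNAs together made up 0.0721% and 0.0726% of miRNA UMIs in HCC mice 1 and 6, 0.0221% in HCC mouse 8 and at most 0.00263% in any other mouse.

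The liver miRNA miR-122-5p, the most abundant miRNA of hepatocytes, was set beside the 4 miRNAs in each mouse. It accounted for 40.98% and 42.7% of miRNA UMIs in HCC mice 1 and 6 and 17.8% in HCC mouse 8. HCC mice 2 and 5 had 29.2% and 28.3%, HCC mouse 4 had 9.53%, HCC mice 3 and 7 had 2.20% and 2.39%, and non-HCC mice had 0.180% to 0.424%. HCC mice 2 and 5 thus had nearly as many UMIs of miR-122-5p as mice 1 and 6 (4166263 and 3957843 against 4184602 and 4157290) and the lowest miR-483 sums of all mice, 40 and 34 UMIs. On the spike-in scale, in contrast, their log2 levels of miR-483-3p, 5.45 and 6.11, were above those of HCC mice 3 and 7 (4.34 and 3.98) and of all non-HCC mice. Conversely, HCC mice 3 and 7, with the least miR-122-5p among HCC mice, had 209 and 255 UMIs of miR-483. High miR-122-5p occurred with and without high miR-483.

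Of the liver list (both arms of miR-122, with miR-101b-3p, miR-194-5p and miR-192-5p), 4 of 5 were called higher in HCC mice and 0 lower, where edgeR called 7.51% of all miRNAs higher and 0.00% lower, and the mean log2 level over the list was 13.30 to 18.97 in HCC mice against 11.89 to 13.34 in non-HCC mice. Of the red cell list 0 of 6, of the platelet and leukocyte list 0 of 5 and of the muscle list 0 of 5 passed the edgeR threshold in either direction on the spike-in scale. With TMM factors 4 of the 5 platelet and leukocyte miRNAs were called lower in HCC mice (median log2 fold change -1.24, against -0.69 on the spike-in scale), where 2.20% of all miRNAs were, and the other 3 counts were unchanged at 4, 0 and 0. None of the miRNAs of these 4 lists was at 0 in any mouse. HCC mice 1 and 6 had the lowest mean red cell level, 12.33 and 13.13, against 13.81 to 16.65 in the other HCC mice, while non-HCC mice had 14.71 to 16.87. They also had the lowest muscle levels among HCC mice, 8.65 and 9.47, where HCC mice spanned 8.65 to 13.30 and non-HCC mice 9.38 to 10.83. The platelet and leukocyte level was 13.10 to 15.94 in HCC mice against 14.52 to 17.05 in non-HCC mice. The part of these miRNAs in the results on miR-483 and miR-675 was not tested. In plasma, more releasing cells and more release per cell cannot be told apart.

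Some other imprinted miRNA genes, not a complete set, were compared as a list, since they share with miR-483 and miR-675 expression from 1 parental chromosome. The list held 105 miRNAs of the Dlk1-Dio3 domain, 101 of them placed by RefSeq and all of those on chromosome 12, with 4 of the Gnas region and 2 of Mest. Of 80 miRNAs of the Dlk1-Dio3 domain tested, 10 were higher in HCC mice (12.5%, against 7.51% of all miRNAs) and 0 were lower, with a median log2 fold change of 1.86 against 0.78 over all miRNAs tested. With TMM factors 8 were higher, with a median of 0.80 against 0.17. Of the 4 miRNAs of the Gnas region (median log2 fold change -0.32) and the 2 of Mest (median 1.19), 0 passed the threshold in either direction. With TMM factors 1 of the Gnas region was lower and 1 of Mest was higher.

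The 3 miRNAs with the smallest p on the list of other imprinted genes, all of the Dlk1-Dio3 domain, had their highest UMIs in HCC mice 2 and 5. The list ends at 109747949 on chromosome 12 and does not hold miR-1247-5p, which is encoded further along that chromosome. MiR-1247-5p had an adjusted p between those of these 3, and its highest UMIs were in HCC mice 1, 6 and 8. With it on the list, the 3 with the smallest p would not all have been highest in HCC mice 2 and 5. MiR-1247-5p is described with the miRNAs of like pattern. The miRNA miR-376b-3p (log2 fold change 5.15, standard error 1.18, edgeR adjusted p = 0.0116) had 1171 and 1298 UMIs in HCC mice 2 and 5, which had the fewest UMIs of miR-483. It had 156, 103 and 37 in HCC mice 1, 6 and 8, 79 to 338 in HCC mice 3, 4 and 7, and 19 to 48 in non-HCC mice. MiR-409-3p (edgeR adjusted p = 0.0224) had 755 and 648 UMIs in HCC mice 2 and 5, 58 to 169 in the other HCC mice, while non-HCC mice had 19 to 80. MiR-377-3p (edgeR adjusted p = 0.0164) had 45 and 58 in HCC mice 2 and 5, 0 in HCC mice 1, 4 and 6, 14 to 30 in HCC mice 3, 7 and 8, and 0 in all non-HCC mice. It thus passed the filter of 5 UMIs in 5 or more mice through HCC mice alone. Its p and its place among the 3, and among the 10 called, are therefore a description and no support for a difference. The mean log2 level over the Dlk1-Dio3 list was likewise highest in HCC mice 5 and 2, at 6.53 and 6.37, and lowest among HCC mice in mouse 1, at 3.498. HCC mouse 6, the mouse most like mouse 1 in its whole profile, had 5.22, HCC mouse 4 had 5.46 and HCC mice 3, 7 and 8 had 3.73 to 3.92. It was 2.98 to 4.04 in non-HCC mice, a range that holds mouse 1 and lies below mouse 6. HCC mice 2 and 5 also had the lowest UniSP2 counts, which raises every level of these mice, and the UMIs of miR-376b-3p and miR-409-3p were highest in them without any scaling.

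**Figure D4:**
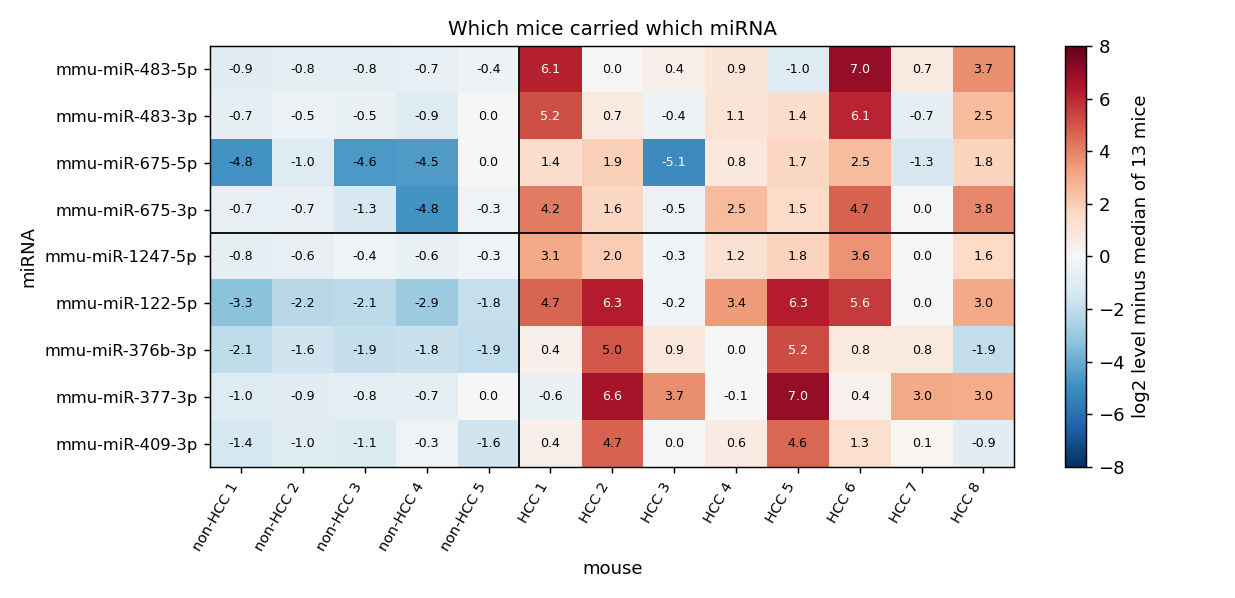
Log2 level of each miRNA (rows) in each mouse (columns) minus its median over the 13 mice, printed in the cells and shown by color. The 4 upper rows are the miRNAs of Igf2 and H19, of which miR-483-5p, miR-483-3p and miR-675-3p have their 3 highest values in HCC mice 1, 6 and 8. MiR-376b-3p, miR-377-3p and miR-409-3p of the Dlk1-Dio3 domain are highest in HCC mice 2 and 5, and miR-122-5p is high in both sets of mice.

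The miRNAs with the pattern most like each of the 4 were taken by Pearson's r of the log2 level over the 13 mice, as a description, since all share the library scale and a few mice set the value. For miR-483-5p they were miR-483-3p (r = 0.93), miR-8112 (0.82) and miR-1247-5p (0.80). MiR-675-3p came next in order, at 0.78. Spearman's rho was lower for the arms of miR-483, at 0.61, than for miR-675-3p, at 0.77. Without HCC mice 1 and 6, which lay farthest from the median, these r values fell to 0.66, 0.45, 0.45 and 0.64, so that the likeness rested in part on 1 pair of alike mice. On TMM levels miR-483-3p was again the most like miR-483-5p (r = 0.95, rho = 0.88), and miR-675-3p ranked 16 (r = 0.78). For miR-483-3p they were miR-483-5p, miR-1247-5p (0.92) and miR-8112 (0.89). For miR-675-3p they were miR-6927-3p (0.91), miR-149-3p (0.88) and miR-1247-5p (0.87), and for miR-675-5p miR-375-5p (0.91), miR-7031-5p (0.90) and miR-3091-5p (0.90), with many counts near the limit.

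The miRNA miR-1247-5p, which was among the 3 most like for 3 of the 4 on the spike-in scale and for 2 of the 4, the arms of miR-483, on TMM levels, is encoded on chromosome 12 of GRCm38.p6 from 110278094 to 110278115. It had 350, 260 and 160 UMIs in HCC mice 1, 6 and 8, 43 to 71 in the other HCC mice, while non-HCC mice had 21 to 37. EdgeR gave a log2 fold change of 2.70 (standard error 0.70, adjusted p = 0.0200). By UMIs the same 3 mice were thus the highest as for miR-483-5p, miR-483-3p and miR-675-3p. The lowest HCC mouse, at 43 UMIs, exceeded the highest non-HCC mouse, at 37, and the share of all miRNAs separated in this way was not computed. On the spike-in scale, HCC mice 6 and 1 were again the highest, with log2 levels 3.58 and 3.05 above the median over all mice. HCC mouse 8, at 1.62 above that median, was then below HCC mice 2 and 5, at 2.03 and 1.79.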

How the data were processed

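The authors built small RNA libraries with molecular barcodes from mouse plasma, aligned the reads to GRCm38 (the submitters' processing notes name FastQC and Bowtie2) and annotated miRNAs by miRBase. The deposited table holds raw UMI counts of miRNAs and spike-ins in each mouse. Columns were assigned by the mouse name in the labels. A further 53 columns, for the F2 mice, match no label and were not used.

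HCC and non-HCC mice were compared with edgeR 4.0.16 (R 4.3.3, quasi-likelihood test, Benjamini-Hochberg adjustment, threshold 0.05), scaled by the mean of both spike-ins as in the study's methods, keeping miRNAs that reached 5 UMIs in 5 or more mice. All 4 miRNAs passed. Standard errors are the log2 fold change over the square root of the F statistic. Exact permutation ran over each of the 1287 splits in Python (numpy 2.4.6, pandas 2.3.3). Nothing in the labels ties mice to litters or batches. Alternatives were TMM, single spike-ins, limma 3.58.1, DESeq2 1.42.0, no filter and a filter of 20 UMIs, other pseudocounts, the replicate number as a block, each mouse left out, and, after the data were seen, merging alike pairs. The edgeR and permutation tests were tested on simulated data.

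The members and lists were chosen with earlier results of these data known. Named miRNAs are the 4, the 3 most like each, and the 3 with the smallest p on the list of other imprinted genes. MiR-1247-5p and miR-122-5p were set out by mouse after their values were seen. The marker lists were red cell (miR-16-5p, miR-451a, both arms of miR-144, miR-363-3p and miR-486a-5p), platelet and leukocyte (miR-126a-3p, miR-223-3p, miR-150-5p and both arms of miR-142a), liver (given with its results) and muscle (miR-499-5p, miR-1a-3p, miR-208b-3p, miR-133a-3p and miR-206-3p).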

Additional observations from a re-analysis of the deposited data

Results flagged for a closer look

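One value stood apart from its group among the 12 groups of values searched. Chance flags about 1 group in 20, so 1 flag among 12 groups is not unusual. In non-HCC mouse 4, miR-675-3p was listed at 0 UMIs, a log2 level of -0.32, against 3.18 in the next lowest non-HCC mouse. The gap was 0.774 of the range of the group, above the limit of 0.71 for 5 mice. An entry of 0 hides up to 9 UMIs, and at 9 UMIs the level of this mouse would be 3.00 and the gap 0.145 of the range. HCC mice 1, 6 and 8 were not set apart by this search, since they lie high together.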

How the results depend on the processing

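The log2 fold changes of the 4 miRNAs were above 0 under all 23 alternatives, and miR-675-3p passed the threshold in each. Limma ended the calls of miR-483-5p (log2 fold change 2.94) and miR-483-3p (2.53), and DESeq2 with its own size factors called miR-675-5p (2.99). Without 1 mouse at a time the log2 fold change was 4.40 to 5.70 for miR-483-5p, 3.40 to 4.64 for miR-483-3p, 2.89 to 4.39 for miR-675-5p and 3.78 to 4.49 for miR-675-3p. MiR-483-5p lost its call without non-HCC mouse 1 (edgeR adjusted p = 0.0516), miR-483-3p without non-HCC mouse 1, 2, 3 or 4, and miR-675-5p gained one without HCC mouse 3 (edgeR adjusted p = 0.0332). The cause was not tested.

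The number of miRNAs called higher was 109 of 1452, against 44 with limma, 179 with DESeq2 and spike-in size factors, and 44 to 157 without 1 mouse. It was 65 without HCC mouse 2 and 44, 47, 47 and 53 without non-HCC mice 1 to 4. The number called lower by edgeR was 0, and 0 throughout without 1 mouse, against 32 with TMM factors, 1 with UniSP4 alone, 61 with DESeq2 and its own size factors and 2 with DESeq2 and spike-in size factors. The difference in arm balance of miR-675, -0.31, turned to 0.09 without HCC mouse 3 and to 0.12 without non-HCC mouse 4 or 5, with a range of -0.98 to 0.12, and that of miR-483 was 0.24 to 0.79 without 1 mouse. The difference in mean log2 level without 1 mouse was 2.26 to 3.41 for miR-483-5p, 1.95 to 2.92 for miR-483-3p, 3.01 to 4.25 for miR-675-5p and 2.96 to 4.16 for miR-675-3p.

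HCC and non-HCC mice share replicate numbers 1 to 5, and samples of the same number did not all deviate together (r = 0.20, 0.41, 0.06, -0.04 and 0.31 over 318 miRNAs), with 3 of 10 mice most like the mouse of their own number, so the number is not a pairing. With it as a replicate block, which leaves HCC mice 6 to 8 without a partner, edgeR called 145 miRNAs higher. The log2 fold change was then 1.56 for miR-483-5p (edgeR adjusted p = 0.165, not past the threshold), 1.96 for miR-483-3p, 4.03 for miR-675-5p (edgeR adjusted p = 0.00375) and 3.20 for miR-675-3p. Counts near 10 UMIs limit the arm ratios. With the alike pairs averaged, the difference in mean log2 level was 2.96 for miR-483-5p, 2.50 for miR-483-3p, 3.63 for miR-675-5p and 3.96 for miR-675-3p (exact permutation p = 0.0159, 0.0317, 0.0556 and 0.00794, none past the threshold after adjustment), and the difference in arm balance was 0.46 for miR-483 and -0.33 for miR-675. With the pairs averaged, 0.00794 is the smallest p that the exact permutation test can give. It passes after adjustment only if many miRNAs come that low, so the adjusted values decide little.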
